A study of Mus musculus with 12 samples.

Results

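The enzymes that break down amino acids were followed in the colon of mice with dextran sulfate sodium (DSS) colitis, with and without L-arginine (L-Arg) in the drinking water. The members were 36 named genes of amino acid breakdown. Each was looked up by symbol among the probe sets that the platform annotation assigns to exactly 1 gene, and its brightest probe set was kept. All 36 were found, out of 19938 genes measured this way. RNA from 12 male wild-type C57BL/6 mice, 7 weeks old at the start, was hybridized to Affymetrix mouse Gene ST arrays, 1 array per mouse. DSS+L-Arg mice (n = 3) drank 4% DSS for 6 days and then 1% L-Arg for 4 days, and DSS mice (n = 3) drank 4% DSS for 6 days and then water for 4 days. Control+L-Arg mice (n = 3) drank water and then 1% L-Arg for the last 4 days, and control mice (n = 3) drank water only. All were killed on day 10 on a standard diet, and each sample combined a proximal and a distal piece of the colon, so it held muscle, blood cells and epithelium together. In such bulk tissue fewer cells of a type and less RNA per cell cannot be told apart.

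Amino acids are stripped of their nitrogen by transaminases and dehydrogenases, and the carbon skeletons are then cut down, mostly inside mitochondria, to acetyl-CoA or to intermediates of the tricarboxylic acid cycle. The branched-chain amino acids leucine, isoleucine and valine share a transaminase and a large ketoacid dehydrogenase complex before their routes part, and isoleucine and valine end, through propionyl-CoA, in succinyl-CoA. Tyrosine is opened to fumarate and acetoacetate, and proline, ornithine and glutamate meet at pyrroline-5-carboxylate. The colon epithelium is rich in mitochondria and oxidizes butyrate, and most of the enzymes here work in the same compartment.

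The tissue carried its defining markers in every sample. The 9 pan-epithelial markers, Epcam and Cdh1 among them, all lay above the 97th percentile of mean log2 signal over all genes, and the 8 smooth muscle markers lay between the 69th and the 97.9th. As the median over each list, relative to the mean of the control mice, the 10 absorptive colonocyte markers lay at -0.02 to 0.00 log2 units in DSS+L-Arg mice, -0.06 to 0.09 in DSS mice and -0.11 to 0.02 in control+L-Arg mice and 0.01 to 0.04 in control mice. On the same scale the 11 neutrophil markers lay at 0.18 to 0.53 in DSS+L-Arg mice, 1.17 to 4.11 in DSS mice, -0.17 to 0.01 in control+L-Arg mice and -0.39 to 0.55 in control mice, with DSS mouse 3 the highest. The 11 monocyte and macrophage markers lay at 0.18 to 0.39 in DSS+L-Arg mice, 0.97 to 1.47 in DSS mice, -0.17 to 0.73 in control+L-Arg mice and -0.09 to 0.06 in control mice. The 8 smooth muscle markers lay at -1.24 to -0.28 in DSS+L-Arg mice, -1.66 to -0.98 in DSS mice, -0.71 to 1.11 in control+L-Arg mice and -0.44 to 0.76 in control mice. The 10 posterior Hox genes, which mark position along the colon, lay at -0.92 to 0.36 in DSS+L-Arg mice, -0.74 to -0.11 in DSS mice, -0.79 to 0.71 in control+L-Arg mice and -0.92 to 0.40 in control mice. In DSS versus control, 7 of 11 neutrophil and 8 of 11 monocyte and macrophage markers rose, 1 of 10 absorptive colonocyte markers fell, and none of the 8 smooth muscle markers passed the test, although all 8 had a log2 fold change below 0 (median -1.25). Single absorptive colonocyte markers ranged from -0.79 to 0.08 there, and from -0.13 to 1.15 in DSS+L-Arg versus DSS. Aqp8 spanned log2 signals of 8.46 to 13.13, while Car1 and Ceacam1 lay at the 100th percentile of mean log2 signal. The median of this list therefore does not show that these cells stayed constant. No marker is at 0 on this log2 scale. The 5 adipocyte markers lay at -0.13 to 0.45 in DSS+L-Arg mice, -0.84 to -0.48 in DSS mice, -0.43 to 1.83 in control+L-Arg mice and -1.0 to 1.28 in control mice. All 5 had a log2 fold change below 0 in DSS versus control (median -0.58) and above 0 in DSS+L-Arg versus DSS (median 0.65), and none passed the test. The part of these cell types in the results below was not tested, except that the smooth muscle and posterior Hox levels were also fitted as covariates.

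Promoters of the members were read from RefSeq (GRCm38.p6), 250 bases before to 50 bases after each annotated start. They were found for 34 of the 36 members, 40 promoters in all. The letters CCAAT, the core of the box bound by NF-Y, stood on either strand in 25 of these 40 promoters (62.5%) and in 37.4% of all 32851 promoters of the table. Of the 12 members that were lower with DSS and had a promoter, 8 held it, and Acadsb, Hibch, Mmaa and Fah did not. Stretches of 60 bases are shown for 5 of these 8 enzymes, from the propionate, leucine and tyrosine routes, and for Glud1, the member that was lower with L-Arg after DSS. Capitals mark the CCAAT match, or its reverse complement ATTGG, that lies nearest to the start among the 250 bases before it. Further matches are left in lower case. The stretches lie at chr14:122484290-122484349 (+ strand) for Pcca, chr2:118861934-118861993 (+) for Ivd, chr12:87147075-87147134 (+) for Gstz1, chr5:114444069-114444128 (-) for Mmab and chr3:36000679-36000738 (-) for Mccc1. In Glud1, at chr14:34310569-34310628 (+), capitals mark GCATGCGC, the reverse complement of the NRF1 letters GCGCATGC, which stood in 2 of the 40 promoters (Glud1 and Pccb) and in 2.71% of all promoters.
Pcca: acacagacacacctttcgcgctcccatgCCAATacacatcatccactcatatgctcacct
Ivd: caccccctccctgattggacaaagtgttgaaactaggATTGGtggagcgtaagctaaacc
Gstz1: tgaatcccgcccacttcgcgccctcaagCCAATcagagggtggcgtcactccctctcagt
Mmab: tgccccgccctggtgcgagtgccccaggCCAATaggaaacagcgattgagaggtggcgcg
Mccc1: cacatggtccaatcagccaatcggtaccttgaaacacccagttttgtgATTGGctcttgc
Glud1: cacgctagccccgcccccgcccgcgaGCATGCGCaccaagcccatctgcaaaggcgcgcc
The E-box letters CACGTG stood in 1 of the 40 promoters, that of Mccc2, and in 7.15% of all promoters. The letters TCAAGGTCA (estrogen-related receptor), CAAAGTCCA (HNF4A) and TGACGTCA (cAMP response element) stood in none of the 40, and in 0.423%, 0.475% and 1.79% of all promoters. These matches describe letters in a window, and none overlapped another of the motifs in the stretches shown.

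DSS colitis was accompanied by lower signal for many of these enzymes. In DSS versus control, 13 of the 36 members fell and none rose (limma across all genes, all 12 arrays in the fit, Benjamini-Hochberg adjusted p under 0.05). Among all 19938 genes, 2.23% fell and 1.8% rose by the same rule. With only the DSS and control mice in the fit, 4 members and 62 of all genes fell. The members were chosen with earlier results of these data known, so their share of calls is not independent evidence. The log2 fold change was below 0 for 31 of the 36 members, and their median log2 fold change was -0.44, against -0.01 over all genes. In 21 members all 3 DSS mice lay below all 3 control mice, as in 14.3% of all genes, and in 1 member, Prodh, all 3 lay above, as in 10.7% of all genes. The members that fell belonged to the leucine route (3 of 4), the valine and isoleucine routes (3 of 7), the propionate route (4 of 5), tyrosine (2 of 4) and glutamate and aspartate (1 of 4, Abat). None of the 5 shared branched-chain genes, the 3 proline and ornithine enzymes, the 2 lysine enzymes or the 2 glycine cleavage genes passed the test. Fah, at -1.29, and Prodh, at 0.50, had the lowest and the highest log2 fold change of the members.

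**Figure D1:**
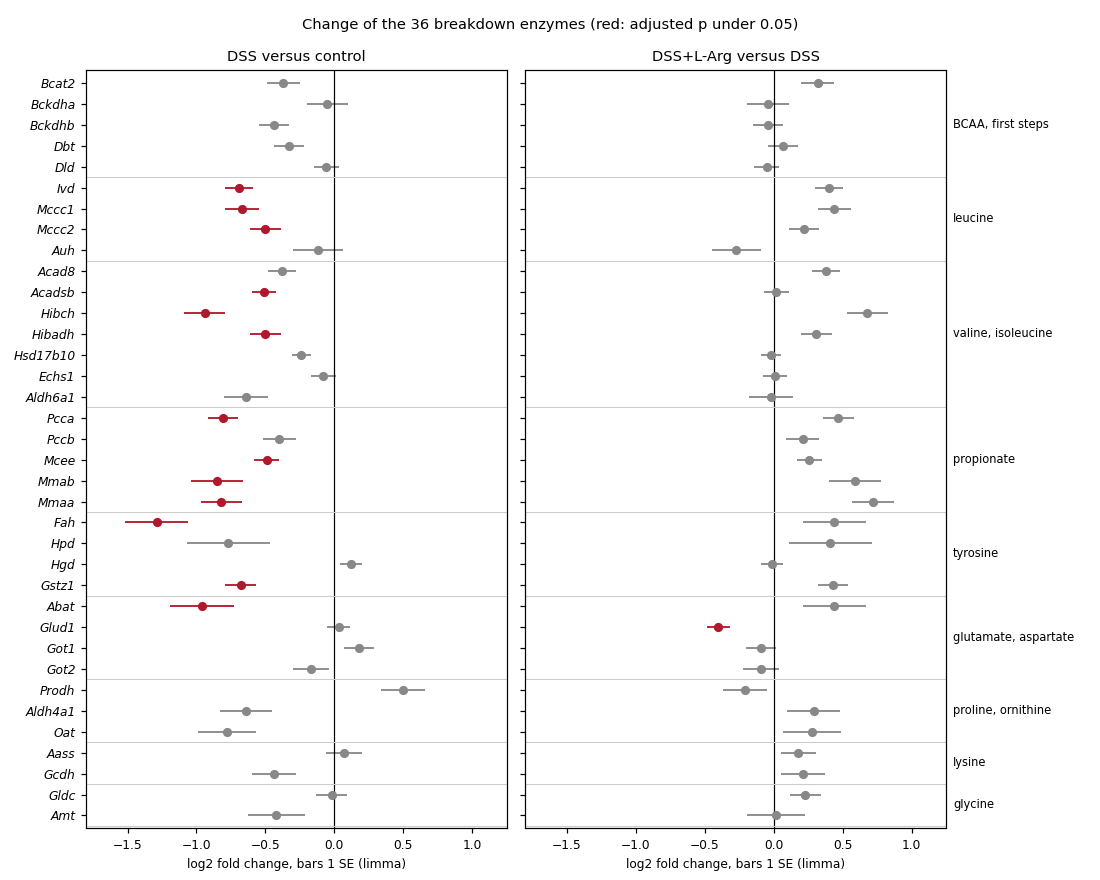
Log2 fold change of each of the 36 breakdown enzymes (points, with bars of 1 SE from limma), in DSS versus control mice on the left and DSS+L-Arg versus DSS mice on the right, with genes grouped by route. Points in red had an adjusted p under 0.05, 13 on the left, all below 0, and Glud1 alone on the right, and 31 points lie below 0 on the left while 25 lie above 0 on the right.

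None of the 5 genes of the shared steps that open branched-chain breakdown passed the test with DSS, although 3 of them, Bckdhb, Bcat2 and Dbt, had log2 fold changes of -0.44 to -0.33. Bcat2, the mitochondrial branched-chain transaminase, had log2 signals of 8.93, 9.15 and 9.02 in DSS+L-Arg mice, 8.93, 8.44 and 8.76 in DSS mice, 9.0, 9.08 and 9.23 in control+L-Arg mice and 9.0, 9.19 and 9.05 in control mice. The DSS mice were all below the control mice, by a log2 fold change of -0.37 ± 0.12 (SE, adjusted p = 0.12). Bckdhb, a subunit of the decarboxylase of the ketoacid dehydrogenase complex, read 6.96, 6.85 and 6.82 in DSS+L-Arg mice, 6.91, 6.79 and 7.04 in DSS mice, 7.52, 7.20 and 7.45 in control+L-Arg mice and 7.31, 7.22 and 7.53 in control mice on the log2 signal scale. Both groups that had drunk DSS lay below both groups that had not, without overlap. The log2 fold change of Bckdhb in DSS versus control was -0.44 ± 0.11 (adjusted p = 0.053). Without control+L-Arg mouse 2, which is not in this comparison, it stayed at -0.44, with an adjusted p of 0.043. Its partner subunit Bckdha stood at -0.05, the transacylase Dbt at -0.33 (adjusted p = 0.12) and the dihydrolipoyl dehydrogenase Dld, which also serves the pyruvate dehydrogenase and glycine cleavage complexes, at -0.06 in log2 fold change. Without DSS mouse 1 the adjusted p of Bcat2 was 0.046, and without DSS mouse 3 that of Dbt was 0.048.

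In the leucine route, 3 genes of neighbouring enzymes fell. Ivd, isovaleryl-CoA dehydrogenase, had log2 signals of 9.26, 9.16 and 9.34 in DSS+L-Arg mice, 8.91, 8.75 and 8.88 in DSS mice, 9.35, 9.45 and 9.27 in control+L-Arg mice and 9.68, 9.36 and 9.58 in control mice. Every DSS mouse was below every mouse of the other 3 groups, and Ivd fell by 37.9% with DSS (log2 fold change -0.69 ± 0.10, adjusted p = 0.0054). Mccc1, the biotin-carrying subunit of methylcrotonyl-CoA carboxylase, had log2 signals of 7.83, 7.77 and 7.92 in DSS+L-Arg mice, 7.37, 7.17 and 7.66 in DSS mice, 8.01, 7.95 and 7.78 in control+L-Arg mice and 8.20, 7.98 and 8.06 in control mice. DSS mice were again below all others, with a log2 fold change of -0.67 ± 0.12 against control (adjusted p = 0.014). The other subunit, Mccc2, had log2 signals of 7.94, 7.67 and 7.94 in DSS+L-Arg mice, 7.56, 7.57 and 7.75 in DSS mice, 8.17, 8.08 and 7.97 in control+L-Arg mice and 8.18, 7.99 and 8.21 in control mice. Its log2 fold change with DSS was -0.50 ± 0.11 (adjusted p = 0.027), so both subunits of the carboxylase fell. Auh, the hydratase that follows, stood at -0.12 ± 0.18 in log2 fold change (adjusted p = 0.79), with DSS mice at 8.49 to 9.19 around control mice at 8.83 to 8.95.

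**Figure D2:**
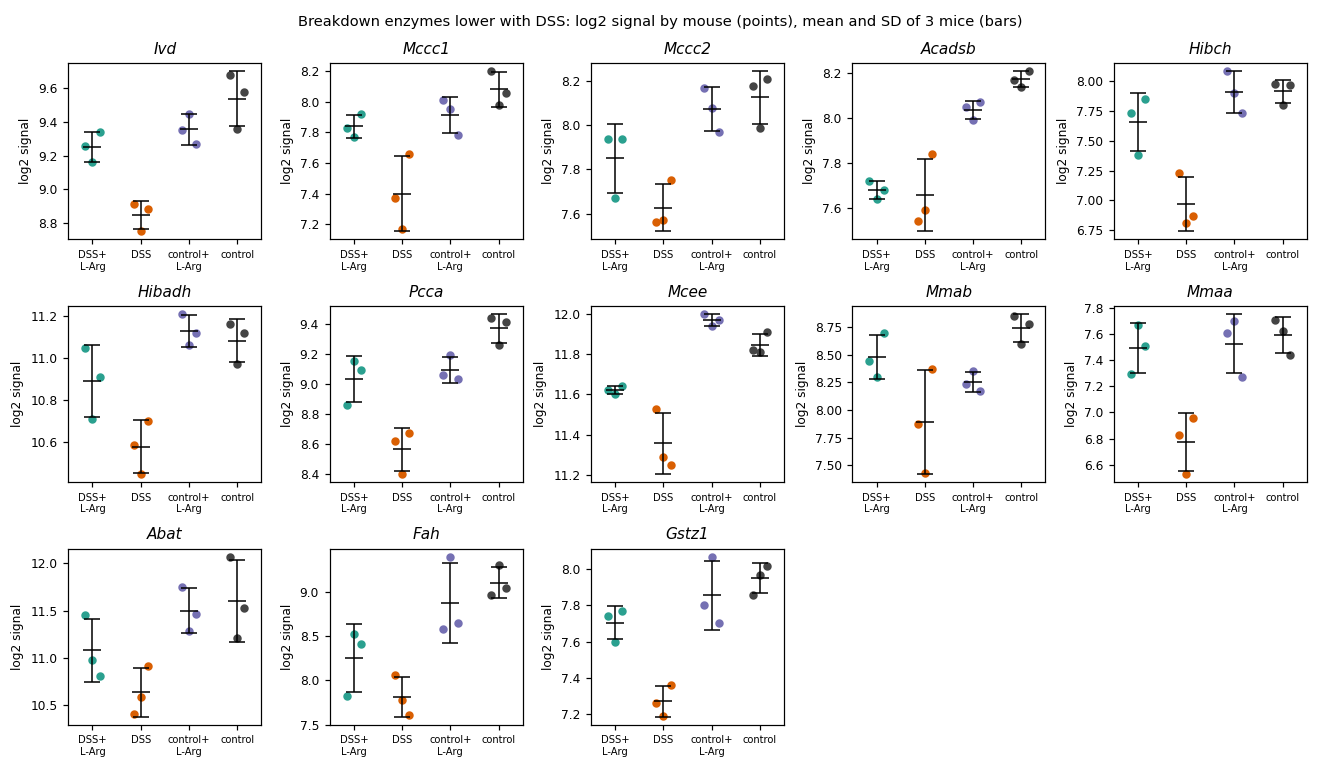
Log2 signal of the 13 enzymes that fell with DSS, 1 panel per gene, with a point for each mouse, and the mean and SD of the 3 mice of each group as bars. The y axes are set per gene and do not start at 0. In all 13 panels the 3 DSS mice lie below the 3 control mice, as with Fah at 7.61 to 8.06 in DSS mice and 8.97 to 9.30 in control mice.

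In the valine and isoleucine routes, 3 of 7 enzymes fell. Hibch, the hydrolase that frees 3-hydroxyisobutyrate from its CoA in valine breakdown, had log2 signals of 7.73, 7.38 and 7.85 in DSS+L-Arg mice, 7.23, 6.81 and 6.87 in DSS mice, 8.08, 7.90 and 7.73 in control+L-Arg mice and 7.97, 7.80 and 7.96 in control mice. It fell by 47.8% with DSS (log2 fold change -0.94 ± 0.15, adjusted p = 0.0076), and DSS mice lay below all the others. Hibch, with Mmaa and Gstz1, is on the list of genes that the study picked on these same arrays as lower with DSS and back with L-Arg, so its direction here is not independent evidence. Hibadh, the dehydrogenase after Hibch, had log2 signals of 11.05, 10.71 and 10.91 in DSS+L-Arg mice, 10.59, 10.45 and 10.70 in DSS mice, 11.21, 11.06 and 11.12 in control+L-Arg mice and 11.16, 10.97 and 11.12 in control mice. Its log2 fold change with DSS was -0.50 ± 0.11 (adjusted p = 0.026). A dim further probe set of Hibadh, with group means of 3.22 to 3.48 in log2 signal, gave a log2 fold change of 0.14, and the mean of both probe sets gave -0.18, which did not pass the test. Acadsb, the dehydrogenase of the isoleucine route, had log2 signals of 7.72, 7.64 and 7.68 in DSS+L-Arg mice, 7.54, 7.59 and 7.84 in DSS mice, 8.05, 7.99 and 8.07 in control+L-Arg mice and 8.17, 8.14 and 8.21 in control mice. All 6 mice given DSS were below all 6 that were not, and the log2 fold change of DSS versus control was -0.51 ± 0.09 (adjusted p = 0.012).

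The other 4 enzymes of these routes did not pass the test in DSS versus control. Aldh6a1, which turns methylmalonate semialdehyde into propionyl-CoA, had log2 signals of 8.36, 8.29 and 8.51 in DSS+L-Arg mice, 8.61, 8.65 and 7.96 in DSS mice, 8.98, 9.11 and 8.83 in control+L-Arg mice and 9.09, 9.03 and 9.03 in control mice. The 6 mice given DSS lay below the 6 that were not, and the log2 fold change of DSS versus control was -0.64 ± 0.16 (adjusted p = 0.051). Without DSS mouse 1 it was -0.74 (adjusted p = 0.032) and without DSS mouse 2 it was -0.76 (adjusted p = 0.041). Acad8, the dehydrogenase of the valine route, stood at -0.38 ± 0.10 (adjusted p = 0.06), with DSS mice at 8.79 to 8.98 below control mice at 9.15 to 9.39 in log2 signal. Hsd17b10, the dehydrogenase of the isoleucine route that is also a part of mitochondrial RNase P, stood at -0.24 ± 0.07 in log2 fold change (adjusted p = 0.086), with DSS mice at 10.60 to 10.73 and control mice at 10.85 to 10.96 in log2 signal. Echs1, the short-chain enoyl-CoA hydratase used also in fatty acid oxidation, stood at -0.08 (adjusted p = 0.71) and its groups overlapped.

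The route from propionyl-CoA to succinyl-CoA held 4 members of 5 that fell with DSS, and the fifth had a log2 fold change on the same side. With the smooth muscle level as a covariate 2 of the 5, Pcca and Mmaa, fell, and with only the groups compared in the fit 1 did, Pcca. Pcca, the biotin-carrying subunit of propionyl-CoA carboxylase, had log2 signals of 8.86, 9.15 and 9.09 in DSS+L-Arg mice, 8.62, 8.40 and 8.67 in DSS mice, 9.06, 9.19 and 9.03 in control+L-Arg mice and 9.44, 9.26 and 9.41 in control mice. It had the lowest adjusted p of the members, 0.0032, and fell by 43.0% with DSS (log2 fold change -0.81 ± 0.11). The partner subunit Pccb stood at -0.40 ± 0.12 in log2 fold change (adjusted p = 0.093), with DSS mice at 9.08 to 9.44 and control mice at 9.56 to 9.77 in log2 signal. Mcee, the epimerase that follows, had log2 signals of 11.62, 11.60 and 11.64 in DSS+L-Arg mice, 11.53, 11.29 and 11.25 in DSS mice, 12.00, 11.94 and 11.97 in control+L-Arg mice and 11.82, 11.81 and 11.91 in control mice. The 4 groups did not overlap, in the order DSS, DSS+L-Arg, control, control+L-Arg, and the log2 fold change of DSS versus control was -0.49 ± 0.09 (adjusted p = 0.013).

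Mmab and Mmaa supply methylmalonyl-CoA mutase with its vitamin B12 cofactor, Mmab by making adenosylcobalamin and Mmaa as a chaperone for its loading. Mmab had log2 signals of 8.44, 8.30 and 8.70 in DSS+L-Arg mice, 7.87, 7.43 and 8.37 in DSS mice, 8.24, 8.35 and 8.17 in control+L-Arg mice and 8.85, 8.60 and 8.78 in control mice. It fell by 44.5% with DSS (log2 fold change -0.85 ± 0.19, adjusted p = 0.036), and the DSS mice were the most widely spread group. Mmaa, on the study's own list as said above, had log2 signals of 7.29, 7.67 and 7.51 in DSS+L-Arg mice, 6.83, 6.53 and 6.96 in DSS mice, 7.61, 7.70 and 7.27 in control+L-Arg mice and 7.71, 7.62 and 7.44 in control mice. The DSS mice lay below all others, with a log2 fold change of -0.82 ± 0.15 against control (adjusted p = 0.014). The mutase itself, Mmut, is not among the 36 members and also fell with DSS, by 0.42 on the log2 scale (adjusted p = 0.03).

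**Figure D3:**
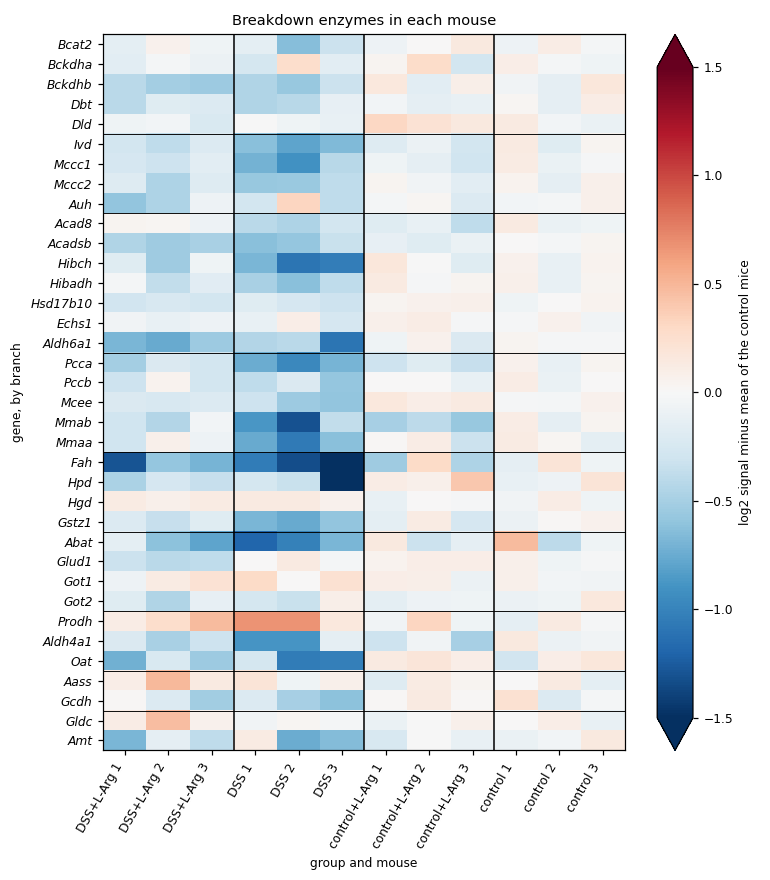
Log2 signal of the 36 breakdown enzymes in each of the 12 mice minus the mean of the 3 control mice, with genes as rows grouped by route and mice as columns, blue below and red above the control mean (colours end at 1.5 log2 units either way). The median of the 36 genes was -0.24 to -0.19 in DSS+L-Arg mice, -0.53 to -0.35 in DSS mice and -0.10 to 0.00 in control+L-Arg mice.

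In tyrosine breakdown, the last steps fell. Fah, fumarylacetoacetate hydrolase, had log2 signals of 7.82, 8.53 and 8.41 in DSS+L-Arg mice, 8.06, 7.78 and 7.61 in DSS mice, 8.58, 9.40 and 8.65 in control+L-Arg mice and 8.97, 9.30 and 9.05 in control mice. It fell by 59.1% with DSS (log2 fold change -1.29 ± 0.23, adjusted p = 0.013), the only member past a fold change of 2 at an unadjusted p under 0.01 from limma. The study used these limits with p from SAM. Gstz1, maleylacetoacetate isomerase and also on the study's own list, had log2 signals of 7.74, 7.60 and 7.77 in DSS+L-Arg mice, 7.26, 7.19 and 7.36 in DSS mice, 7.80, 8.07 and 7.70 in control+L-Arg mice and 7.86, 7.97 and 8.02 in control mice. Its log2 fold change with DSS was -0.68 ± 0.11 (adjusted p = 0.0072), and DSS mice lay below every other mouse. Hpd, the dioxygenase that acts on 4-hydroxyphenylpyruvate, earlier in this route, stood at -0.77 ± 0.30 in log2 fold change (adjusted p = 0.19), with log2 signals of 9.34, 9.27 and 7.87 in DSS mice and 9.49, 9.52 and 9.79 in control mice. The low value of Hpd was in DSS mouse 3 alone. Hgd, homogentisate dioxygenase, had log2 signals of 5.27 to 5.52 in all 12 mice, below 5.89, the 30th percentile of all values.

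Around glutamate, the enzymes went different ways. Abat, the transaminase of the transmitter GABA that also acts in valine breakdown, had log2 signals of 11.45, 10.98 and 10.81 in DSS+L-Arg mice, 10.41, 10.59 and 10.92 in DSS mice, 11.75, 11.28 and 11.46 in control+L-Arg mice and 12.07, 11.21 and 11.53 in control mice. It fell by 48.7% with DSS (log2 fold change -0.96 ± 0.23, adjusted p = 0.043). Glud1, glutamate dehydrogenase, stood at 0.03, and the aspartate transaminases Got1 (cytosol) and Got2 (mitochondria) at 0.18 and -0.17 in log2 fold change, with adjusted p of 0.40 to 0.88 and overlapping groups. A further probe set of Got2 also gave -0.17, and RefSeq lists a pseudogene of Got2, whose transcripts these probes might not separate.

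Oat, ornithine aminotransferase, links ornithine from arginine to proline and glutamate. Its log2 signals were 10.32, 10.81 and 10.50 in DSS+L-Arg mice, 10.78, 9.99 and 10.01 in DSS mice, 11.17, 11.22 and 11.14 in control+L-Arg mice and 10.75, 11.14 and 11.21 in control mice. DSS mouse 1 overlapped control mouse 1, and the log2 fold change was -0.78 ± 0.21 (adjusted p = 0.058). Without DSS mouse 1 it was -1.03 (adjusted p = 0.005). RefSeq lists a pseudogene of Oat as well. Prodh, proline dehydrogenase, had log2 signals of 7.87, 8.02 and 8.24 in DSS+L-Arg mice, 8.43, 8.43 and 7.92 in DSS mice, 7.71, 8.08 and 7.70 in control+L-Arg mice and 7.63, 7.90 and 7.74 in control mice. DSS mice were all above control mice, with a log2 fold change of 0.50 ± 0.16 (adjusted p = 0.11), and without DSS mouse 3 it was 0.67 (adjusted p = 0.034). Aldh4a1, the next enzyme of the proline route, had log2 signals of 7.68, 7.41 and 7.59 in DSS+L-Arg mice, 7.01, 7.01 and 7.77 in DSS mice, 7.59, 7.85 and 7.40 in control+L-Arg mice and 8.05, 7.81 and 7.85 in control mice. Here DSS mouse 3 lay next to the control mice, and the log2 fold change of -0.64 ± 0.19 (adjusted p = 0.089) was -0.89 without it (adjusted p = 0.0085).

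**Figure D4:**
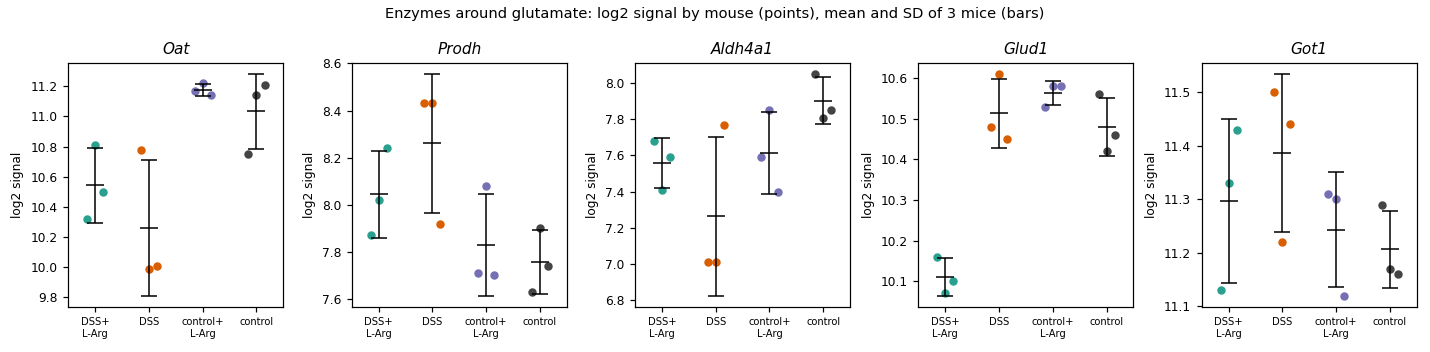
Log2 signal of 5 enzymes around glutamate, 1 panel per gene, with a point for each mouse, and the mean and SD of the 3 mice of each group as bars. The y axes are set per gene and do not start at 0. The DSS+L-Arg mice stand apart below in Glud1, at 10.07 to 10.16, against 10.45 to 10.61 in DSS mice, and Prodh is the panel in which all DSS mice lie above all control mice.

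Lysine and glycine breakdown showed no call. Gcdh, glutaryl-CoA dehydrogenase, had log2 signals of 8.29, 8.07 and 7.75 in DSS+L-Arg mice, 8.07, 7.77 and 7.65 in DSS mice, 8.29, 8.40 and 8.29 in control+L-Arg mice and 8.50, 8.06 and 8.24 in control mice, a log2 fold change of -0.44 ± 0.16 with DSS (adjusted p = 0.15). Amt, the aminomethyltransferase of glycine cleavage, had log2 signals of 6.71, 7.26 and 7.01 in DSS+L-Arg mice, 7.51, 6.65 and 6.74 in DSS mice, 7.15, 7.38 and 7.28 in control+L-Arg mice and 7.29, 7.35 and 7.54 in control mice. DSS mouse 1 lay with the control mice, and the log2 fold change of Amt was -0.42 ± 0.21 (adjusted p = 0.29), or -0.70 without that mouse (adjusted p = 0.023). Aass, which opens lysine breakdown, and Gldc, the glycine decarboxylase, had log2 signals under 5.89 in all 12 mice, and their log2 fold changes with DSS were 0.07 and -0.02.

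How far the 13 calls rested on particular mice was followed by leaving out each mouse in turn, which also changed the number of calls over all genes. Ivd, Hibch, Pcca and Gstz1 passed the test without any 1 of the 12 mice, with adjusted p of at most 0.034, 0.042, 0.023 and 0.042. Without control mouse 3 the count was 5 of 36, since Mccc1, Mccc2, Acadsb, Hibadh, Mcee, Mmab, Abat and Fah then had adjusted p of 0.056 to 0.13, and 87 of all genes were called lower, against 444 with all mice. Without control mouse 1 it was 7, with Mccc1, Mccc2, Hibadh, Mmab, Mmaa and Abat at 0.063 to 0.14, and 135 of all genes were called lower. All of these kept their sign. Over all alternatives the log2 fold changes of Mccc2 ranged from -0.57 to -0.46, of Acadsb from -0.61 to -0.46 and of Fah from -1.48 to -1.19, while those of Mmab (-1.09 to -0.62), Abat (-1.16 to -0.73) and Hibadh (-0.56 to -0.18) ranged more widely. Mccc2, Hibadh, Mmab and Abat were not called without DSS mouse 2 either (0.077 to 0.11), nor Mmab and Abat without DSS mouse 1 (0.053 and 0.08) or control+L-Arg mouse 1 (0.056 each). Mmab was not called without control mouse 2 (0.064), and Abat without control+L-Arg mouse 3 (0.061), DSS+L-Arg mouse 2 (0.061) or DSS+L-Arg mouse 3 (0.055). Members not called with all mice were given above only with the removals that brought a call, and no other removal did. Without DSS mouse 1, 15 members and 745 of all genes were called lower. Without DSS mouse 2 these counts were 10 and 225, and without DSS mouse 3 they were 15 and 420. With only the DSS and control mice in the fit, 4 members fell, Hibch, Pcca, Fah and Gstz1, and 62 of all genes. With the smooth muscle level of each array as a covariate, 8 fell: Ivd, Mccc1, Hibch, Pcca, Mmaa, Fah, Gstz1 and Aldh4a1, the last at -0.95 (adjusted p = 0.046), and 103 of all genes fell.

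The effect of L-Arg after DSS was read in DSS+L-Arg versus DSS mice, which share the DSS mice with the comparison above. No member rose and 1, Glud1, fell (limma, adjusted p under 0.05), where 0.115% of all genes rose and 0.522% fell. At an unadjusted p under 0.05, 11 members were higher and 1 was lower, as were 7.99% and 5.53% of all genes. The log2 fold change was above 0 for 25 of the 36 members, as for 62.8% of all genes, with a median of 0.22 against 0.06 over all genes. In 11 members all 3 DSS+L-Arg mice lay above all 3 DSS mice, as in 11% of all genes, and in Glud1 all lay below, as in 5.6% of all genes. The log2 fold changes nearest to a call were those of Mmaa, at 0.72 ± 0.15 (adjusted p = 0.064), Hibch, at 0.68 ± 0.15 (0.077), Pcca, at 0.47 ± 0.11 (0.094), Gstz1, at 0.43 ± 0.11 (0.11), and Ivd, at 0.40 ± 0.10 (0.12). Mmaa, Hibch and Gstz1 were picked by the study on these same arrays as back with L-Arg. Their places here and in the comparisons below are therefore not independent evidence. Mmab stood at 0.59 ± 0.19 (0.23), Mccc1 at 0.44 ± 0.12 (0.17), Acad8 at 0.38 ± 0.10 (0.14) and Bcat2 at 0.32 ± 0.12 (0.30). Abat and Fah, at 0.44 ± 0.23 each (0.44), and Hpd, at 0.41 ± 0.30 (0.58), had wider errors.

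Acadsb, which fell with DSS, and Aldh6a1, Bckdhb and Hsd17b10, which did not pass the test there, had log2 fold changes close to 0 in DSS+L-Arg versus DSS. Acadsb stood at 0.02 ± 0.09, Aldh6a1 at -0.02 ± 0.16, Bckdhb at -0.04 ± 0.11 and Hsd17b10 at -0.02 ± 0.07, with adjusted p of 0.91 to 0.97. Glud1 aside, the remaining members lay between -0.27 (Auh) and 0.31 (Hibadh), with adjusted p of 0.23 to 0.98. Without DSS mouse 3, Mccc1 (0.57, adjusted p = 0.05) and Mmab (0.83, adjusted p = 0.041) passed the test as higher. Without DSS mouse 1, Hibch did (0.81, adjusted p = 0.027), and with the smooth muscle level as a covariate Gstz1 (0.47, adjusted p = 0.046) and Mmaa (0.76, adjusted p = 0.033) did. Hibch, Gstz1 and Mmaa are on the study's own list, as said above. Of all genes, 142 were called either way without DSS mouse 3, 323 without DSS mouse 1 and 276 with that covariate, against 127 in the main fit.

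Glud1, which runs between glutamate and 2-oxoglutarate, was the member that fell with L-Arg after DSS. Its log2 signals were 10.16, 10.07 and 10.10 in DSS+L-Arg mice, 10.48, 10.61 and 10.45 in DSS mice, 10.53, 10.58 and 10.58 in control+L-Arg mice and 10.56, 10.42 and 10.46 in control mice. The 3 DSS+L-Arg mice lay below all other mice, and the other 3 groups overlapped. The log2 fold change was -0.40 ± 0.08 against DSS mice (adjusted p = 0.049) and -0.45 ± 0.08 against control+L-Arg mice (adjusted p = 0.047). Both calls sat at the threshold: against DSS mice the adjusted p was 0.052 to 0.19 without any 1 of the 12 mice, and against control+L-Arg mice it was 0.031 to 0.046 without DSS mouse 1, 2 or 3 and 0.052 to 0.19 without any other mouse.

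What was left of the DSS change after L-Arg was read in DSS+L-Arg versus control mice, which share arrays with both comparisons above. No member was called higher or lower, and 0.0301% of all genes were called higher and 0.0351% lower. At an unadjusted p under 0.05, 14 members were lower and none higher, where 5.67% of all genes were lower and 6.96% higher. Of the 36, 30 had a log2 fold change below 0, as had 43.8% of all genes, with a median of -0.25 against 0.03 over all genes. The members with the lowest adjusted p were Acadsb (-0.49 ± 0.09, 0.093), Glud1 (-0.37 ± 0.08, 0.12), Bckdhb (-0.48 ± 0.11, 0.15) and Aldh6a1 (-0.66 ± 0.16, 0.17), and Fah had the lowest log2 fold change (-0.85 ± 0.23, 0.21). In Acad8 the log2 fold change was 0.00 ± 0.10, in Bcat2 -0.05 ± 0.12 and in Mmaa -0.10 ± 0.15. Without DSS mouse 3, Acadsb (-0.49, adjusted p = 0.028) and Aldh6a1 (-0.66, adjusted p = 0.024) passed the test. That mouse is not in this comparison, so both log2 fold changes stayed the same. Only the spread shared by the fit and the adjustment over all genes changed, and 20 of all genes were called lower, against 7 with all mice.

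Among mice given L-Arg, the DSS effect was read in DSS+L-Arg versus control+L-Arg mice. Glud1 was lower, as given above, and no other member was called, where 0.201% of all genes were called higher and 0.105% lower. The median log2 fold change of the members was -0.16, against 0.04 over all genes. Bckdhb stood at -0.51 ± 0.11 (adjusted p = 0.093), Hsd17b10 at -0.32 ± 0.07 (0.094), Acadsb at -0.36 ± 0.09 (0.11), Mcee at -0.35 ± 0.09 (0.11), Dld at -0.34 ± 0.09 (0.13) and Oat, with the lowest log2 fold change, at -0.63 ± 0.21 (0.19). Acadsb (adjusted p = 0.047) and Aldh6a1 (adjusted p = 0.025) were called without DSS mouse 3, and Bckdhb (-0.61, adjusted p = 0.041) without control+L-Arg mouse 2. DSS mouse 3 is not in this comparison, and without it the log2 fold changes of Acadsb and Aldh6a1 stayed at -0.36 and -0.58. Of all genes, 71 were called lower without DSS mouse 3 and 101 without control+L-Arg mouse 2, against 21 with all mice.

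L-Arg given to mice without colitis moved no member past the test. In control+L-Arg versus control mice, 0% of all genes were called higher and 0% lower by limma. At an unadjusted p under 0.05, 1 member was higher (Dld, 0.23 ± 0.09 in log2 fold change) and 2 were lower (Pcca, -0.28 ± 0.11, and Mmab, -0.49 ± 0.19), where 1.33% of all genes were higher and 2.11% lower. The median log2 fold change of the members was -0.04, against -0.01 over all genes.

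Whether L-Arg acted differently after DSS was tested as the L-Arg effect with DSS minus that without DSS. No member was called, where 0.01% of all genes were called higher and 0.0652% lower. The difference in log2 fold change was 1.07 ± 0.28 for Mmab (adjusted p = 0.19), 0.78 ± 0.21 for Mmaa (0.22), 0.75 ± 0.15 for Pcca (0.11), 0.60 ± 0.14 for Acad8 (0.18), 0.59 ± 0.14 for Ivd (0.18) and -0.48 ± 0.11 for Glud1 (0.16). Without DSS mouse 3 that of Mmab was 1.32 (adjusted p = 0.03). At an unadjusted p under 0.05, 8 members had a positive difference and 1 a negative one, where 6.62% and 4.19% of all genes did.

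Of 74 further genes of amino acid breakdown, 65 were measured. In DSS versus control 6 of them fell and none rose, where 2.23% of all genes fell and 1.8% rose. Cdo1, cysteine dioxygenase, fell by 1.43 on the log2 scale (adjusted p = 0.0071), with log2 signals of 7.42, 6.31 and 7.14 in DSS mice and 8.25, 8.54 and 8.37 in control mice. Gpt2, the mitochondrial alanine transaminase, fell by 0.84 (adjusted p = 0.0065), with log2 signals of 7.73, 7.53 and 7.41 in DSS mice and 8.53, 8.22 and 8.44 in control mice. Kyat3, a kynurenine aminotransferase, fell by 0.91 (adjusted p = 0.009), Hykk, hydroxylysine kinase, by 0.90 (adjusted p = 0.038), and Acat1, the acetyl-CoA acetyltransferase that closes the isoleucine route, by 0.64 (adjusted p = 0.019). With Mmut these were 2 of 10 further branched-chain and propionate genes, 1 of 13 of phenylalanine and tryptophan, 1 of 11 of lysine and hydroxyproline, 1 of 7 of glutamine, alanine, asparagine and GABA, 1 of 11 of sulfur amino acids and 0 of 13 of serine, glycine, threonine and histidine. The median log2 fold change of the 65 genes was -0.07, against -0.44 for the 36 members. Several of the 65, Tdo2, Kmo, Acmsd and Aadat among them, lay below 5.89, the 30th percentile of all values, in all 12 mice. Among the members this held for Hgd, Aass and Gldc. Both sets were also chosen with earlier results known, so the medians do not show that the fall was particular to the 36. In DSS+L-Arg versus DSS none of the 65 was called, with a median of 0.11, and Cdo1 stood at 0.46 ± 0.22 (adjusted p = 0.40), Gpt2 at 0.53 ± 0.13 (0.11), Acat1 at 0.42 ± 0.13 (0.19) and Kyat3 at 0.07 ± 0.15 (0.86).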

How the data were processed

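The authors deposited log2 expression values for 35556 probe sets, made per the labels with RMA in Affymetrix Expression Console 1.1 (build mm9). These values were used as deposited. Gene names came from the platform annotation (21789 probe sets with 1 gene, 1621 with several, 12146 not listed there). For 999 genes with several probe sets the brightest was kept. The array medians were 6.49 to 6.64, and the 3 mice per group limit the precision. Replicates were distinct: at least 95.1% of genes differed by over 0.01 between any 2 arrays of a group.

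Group means were fitted with limma 3.58.1 (R 4.3.3; lmFit, contrasts, eBayes, 8 residual degrees of freedom) over all 12 arrays and 19938 genes, with Benjamini-Hochberg adjustment over all genes and a threshold of 0.05. Scripts were tested on simulated data. The members and lists were chosen with earlier results of these data known. All members could be named. Values by mouse were given for members called in DSS versus control or DSS+L-Arg versus DSS and for those with the largest change of each route. Of each list of further genes, the called ones with the largest change were named. The motifs were searched on both strands of RefSeq promoters, for which Python 3.11.15 with pandas 2.3.3 was used.

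Alternatives were other fits, scalings, filters, tests, the study's limits with p from limma in place of SAM (p under 0.01 and fold change over 2), tissue covariates, array weights and leaving out each mouse. Mouse numbers come from the sample titles, which do not say that they pair mice. Same-numbered control+L-Arg and control mice deviated together (r = 0.205, 0.477 and 0.261 across genes). In no other pair of groups were all 3 correlations over 0.1. They were 0.408, 0.305 and -0.05 for DSS+L-Arg with control mice. For DSS+L-Arg with control+L-Arg mice they were 0.351, 0.206 and -0.281. Pairs of groups with the DSS mice had 0 correlations over 0.1.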

Additional observations from a re-analysis of the deposited data

Results flagged for a closer look

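In Acad8 and Pcca the mice given L-Arg moved to opposite sides with and without DSS. Both results came up because all 3 DSS+L-Arg mice lay above all 3 DSS mice, while all 3 control+L-Arg mice lay below all 3 control mice. The L-Arg effect with DSS minus that without DSS was 0.60 ± 0.14 for Acad8 (SE, limma adjusted p = 0.18) and 0.75 ± 0.15 for Pcca (adjusted p = 0.11) on the log2 scale, so neither passed the test of the difference. With array weights the difference of Pcca was 0.76 (adjusted p = 0.045). This pattern was present in 2 of the 36 members and in 230 of all genes (1.15%). No cause of it was tested.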

How the results depend on the processing

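The values called in DSS versus control, DSS+L-Arg versus DSS and DSS+L-Arg versus control+L-Arg had the same sign under every alternative run (0 changes of sign in 312, 24 and 24 values). Many of these values could not change sign. Alternatives that alter only the spread, the test or the adjustment keep the log2 fold change of the main fit. Leaving out a mouse that is not in the comparison keeps it too. In DSS versus control, 13 members were lower, against 4 with only the groups compared in the fit, 8 with the smooth muscle covariate, 1 at the study's limits with limma's p (Fah), 0 by the unequal-variance test and 0 by SAM (16 and 24 at an unadjusted p under 0.05), and 5 to 15 without 1 mouse. SAM and the unequal-variance test called 0 of all genes in every comparison in which they were run, so their counts of 0 bear neither way. Members higher were 0, against 1 with array weights (Prodh) and 0 to 1 without 1 mouse. With array weights 930 of all genes were called either way, against 803 in the main fit. In DSS+L-Arg versus DSS, members higher were 0, against 2 with the smooth muscle covariate and 0 to 2 without 1 mouse. Glud1 was the 1 member lower, and the count was 0 without any 1 mouse and with only the groups compared, the block, centred arrays, the trended prior, array weights, the posterior Hox covariate, the unequal-variance test, SAM and the study's threshold. In DSS+L-Arg versus control, members lower were 0, against 4 with array weights, 1 with the posterior Hox covariate (Fah) and 0 to 2 without 1 mouse. Of all genes, 159 were lower there with array weights and 51 with the posterior Hox covariate, against 7 in the main fit. In DSS+L-Arg versus control+L-Arg, members lower were 1, against 4 with array weights, 0 to 3 without 1 mouse, and 0 with only the groups compared, the block, centred arrays, the smooth muscle covariate, the unequal-variance test, SAM and the study's threshold. With the posterior Hox covariate the count was also 1, but the member was Fah (-0.83, limma adjusted p = 0.028), and Glud1 was not called. That covariate gave 41 of all genes lower. Array weights also raised the genes called lower there from 21 to 154 of all genes. For the difference of L-Arg effects, members higher were 0, against 2 with array weights (Mmab and Pcca), 1 at the study's threshold (Mmab) and 0 to 1 without 1 mouse. With the mouse number as a replicate block, 14 members were lower in DSS versus control, and Glud1 had an adjusted p of 0.091 against DSS mice and 0.078 against control+L-Arg mice. The block within control+L-Arg and control mice, chosen after seeing the data, left 0 calls. The causes of these changes were not tested. Arrays give no depth, and Hgd, Aass and Gldc lay below the 30th percentile of all values in all 12 mice.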

Other observations

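Beyond the 36 enzymes, the further breakdown genes with the largest log2 fold change in DSS+L-Arg versus DSS were Ido1 and Hoga1, and neither passed the test. Ido1, the dioxygenase that opens tryptophan breakdown in immune-stimulated tissue, had log2 signals of 10.01, 8.99 and 9.90 in DSS+L-Arg mice, 9.27, 7.51 and 7.32 in DSS mice, 8.33, 8.06 and 7.00 in control+L-Arg mice and 7.84, 8.43 and 8.05 in control mice. Its log2 fold change was 1.60 ± 0.50 against DSS mice (limma adjusted p = 0.21), and DSS mouse 1 lay within the range of the DSS+L-Arg mice. Hoga1, the aldolase at the end of hydroxyproline breakdown, had log2 signals of 7.10, 6.36 and 6.45 in DSS+L-Arg mice, 6.67, 9.85 and 8.36 in DSS mice, 6.46, 6.20 and 6.39 in control+L-Arg mice and 6.93, 6.21 and 6.61 in control mice. The high values were in DSS mice 2 and 3, with a log2 fold change of -1.65 ± 0.58 for DSS+L-Arg versus DSS (adjusted p = 0.25).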
